A study of Homo sapiens with 8 samples.

Results

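The genes of 6 interferon regulatory factors (IRF1, IRF2, IRF3, IRF7, IRF8 and IRF9) and of 2 signal transducers and activators of transcription (STAT2 and STAT3) were examined for H3K27ac, the acetylation of lysine 27 on histone H3, which is found on promoters and enhancers in use. The genes were selected on the classes and positions of the peaks around them in these same lists. A peak belonged to a gene when it touched the RefSeq span of that gene or the 100 kb on either side, and it went to the closest of the 8 genes. This gave 98 of 39797 control peaks and 91 of 42552 ARID1A knockout peaks on chromosomes 1 to 22 and X. A peak was shared when it overlapped a peak of the other genotype by at least 1 bp, and was otherwise control-only or knockout-only. Positions are on hg38.

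The cells were of the human breast cancer line MDA-MB-231, which lacks hormone receptors and HER2 amplification, as a control and with a knockout of ARID1A, a large subunit of the chromatin remodeller SWI/SNF. The 8 libraries were 2 inputs and 2 immunoprecipitates of each genotype, with no treatment named, and the labels did not say whether the knockout was 1 clone or a pool, or whether replicates were separate cultures. The data used were 1 peak list per genotype, so each value below stands alone for its genotype, has no replicate error, and allows no test of the genotype. The titles and sample characteristics named H3K27ac, whereas the extraction protocol named an antibody to H3K4me3, and the first was followed here.

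Interferon regulatory factors bind interferon-stimulated response elements, and STAT proteins are activated by Janus kinases below cytokine receptors. IRF3 and IRF7 are phosphorylated after viral nucleic acid is sensed and switch on type I interferon genes. STAT2 and IRF9 are parts of the complex ISGF3 that carries the type I interferon signal to the nucleus, IRF1 is an activator induced by interferon gamma, IRF2 competes with it, IRF8 acts in myeloid and B cells, and STAT3 is the main STAT of interleukin-6 family cytokines and is often active in breast cancer.

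The start sites of IRF1, IRF9, STAT2 and STAT3 lay inside a peak in both genotypes, and their promoters are shown because the acetylated stretch covered all 250 bases before the start in both lists. The sequences are from RefSeq (GRCh38.p14), run 5′ to 3′ in the direction of the gene and end at the base before the start. Capitals mark a match to the gamma-interferon activation site (GAS) TTCNNNGAA, the STAT-binding pattern of this group.
IRF1, chr5:132490774-132491023, minus strand: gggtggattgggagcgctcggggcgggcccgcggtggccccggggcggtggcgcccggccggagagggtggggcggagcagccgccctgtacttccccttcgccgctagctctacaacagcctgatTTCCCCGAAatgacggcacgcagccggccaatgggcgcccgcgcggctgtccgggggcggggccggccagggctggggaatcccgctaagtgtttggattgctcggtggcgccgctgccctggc
IRF9, chr14:24161015-24161264, plus strand: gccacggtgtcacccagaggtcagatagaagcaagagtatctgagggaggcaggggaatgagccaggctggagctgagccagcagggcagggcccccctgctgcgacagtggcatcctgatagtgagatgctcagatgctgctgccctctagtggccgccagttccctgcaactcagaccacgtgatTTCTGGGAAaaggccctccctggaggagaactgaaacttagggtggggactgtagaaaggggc
STAT2, chr12:56360108-56360357, minus strand: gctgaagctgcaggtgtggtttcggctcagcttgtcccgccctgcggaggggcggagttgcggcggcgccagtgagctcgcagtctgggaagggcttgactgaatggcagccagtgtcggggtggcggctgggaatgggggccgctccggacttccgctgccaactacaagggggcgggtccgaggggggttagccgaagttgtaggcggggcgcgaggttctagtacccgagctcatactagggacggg
STAT3, chr17:42388443-42388692, minus strand: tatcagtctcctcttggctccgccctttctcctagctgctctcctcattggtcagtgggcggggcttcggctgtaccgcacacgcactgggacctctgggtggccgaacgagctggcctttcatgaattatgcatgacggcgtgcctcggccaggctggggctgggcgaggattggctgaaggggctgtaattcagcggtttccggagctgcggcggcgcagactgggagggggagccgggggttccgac
Of the 8 genes, 5 had an entry in the promoter table and 3 had none (IRF2, IRF3 and IRF7). The 2 entries of IRF8 began 3.67 and 3.85 kb inside the gene span and are not printed. The GAS match of IRF1 (TTCCCCGAA) lay 124 to 116 bases before the start and that of IRF9 (TTCTGGGAA) 63 to 55 bases before it. STAT2 and STAT3 held no match in this window. On both strands, a GAS match was found in 6.57% of the 35116 promoter entries of the table. The other patterns searched on both strands, with no match in any of these promoters or in those of IRF8, were the interferon-stimulated response core (GAAA, 2 bases of any kind, GAAA, in 3.02% of entries), the NF-kappaB pattern (GGG, 2 bases of any kind, TTTCC, in 1.73%) and the AP-1 pattern (TGANTCA, in 6.57%). A match is a run of letters and not a measured binding site. Only these exact patterns were searched. A promoter with no match can therefore still hold a looser form of a site, such as ggggaatccc in IRF1 for NF-kappaB.

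Around these genes, most acetylated stretches were common to both genotypes. The control list had 80 shared and 18 control-only peaks, and the knockout list had 81 shared and 10 knockout-only peaks. The control-only share was 18.4% near the 8 genes and 18.0% over all control peaks. The knockout-only share was 10.99% near the 8 genes, 22.4% over all knockout peaks and 20.5% of knockout peaks within 100 kb of any protein-coding gene. Exact (Clopper-Pearson) 95% intervals were 11.3 to 27.5% for the 18.4% and 5.40 to 19.3% for the 10.99%, covering counting error only, and neighbouring peaks are not independent. The classes are what defined the set, so these shares are a description.

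**Figure D1:**
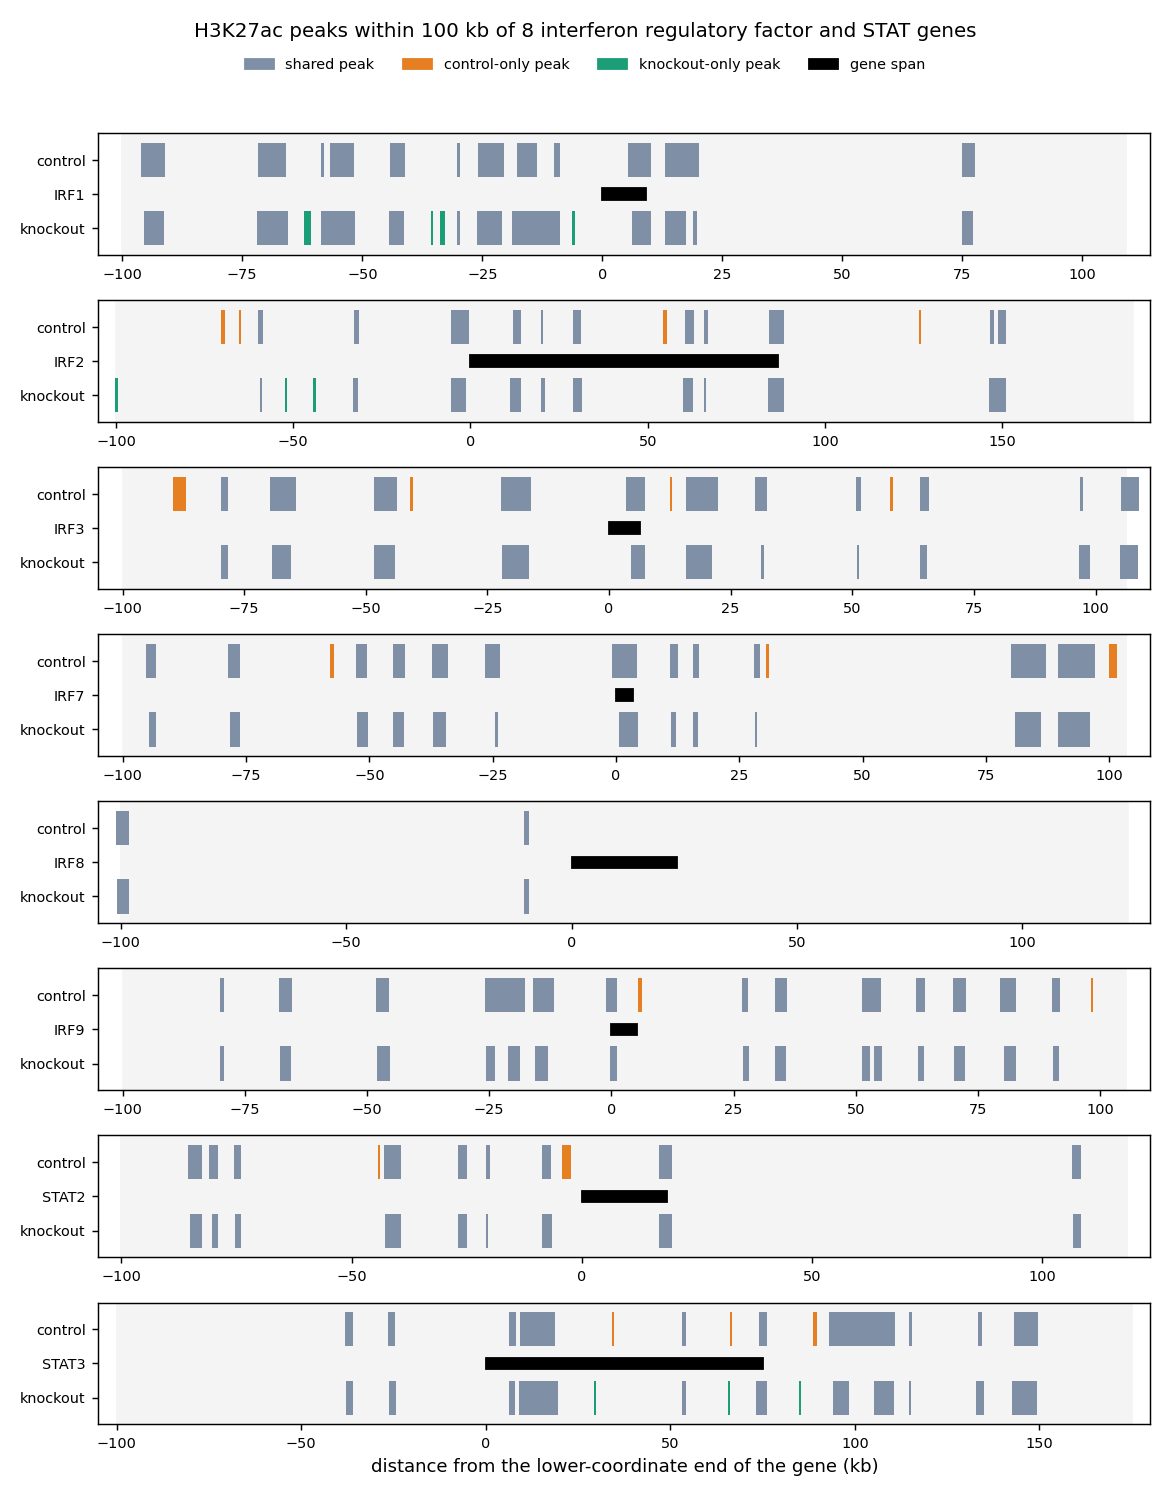
Each panel plots 1 gene, with the distance from its lower-coordinate end in kb on the x axis, control peaks above and knockout peaks below the black gene span, and the window of 100 kb on either side as a shaded band. The IRF8 window holds 2 peaks per list, whereas the other windows hold 9 to 15.

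The genes differed in which genotype held the unshared peaks. At IRF1, 0 of 12 control peaks were control-only and 4 of 15 knockout peaks were knockout-only. In the same order, IRF3 had 4 of 15 and 0 of 11, and IRF7 had 3 of 15 and 0 of 12. IRF9 had 2 of 15 and 0 of 15, and STAT2 had 2 of 11 and 0 of 9. IRF2 (4 of 15 and 3 of 13) and STAT3 (3 of 13 and 3 of 14) had some of each. IRF8, with 2 peaks per list, had none of either. Over all peaks, 18.0% of control and 22.4% of knockout peaks were unshared, and these counts per gene are small. The windows of IRF3, IRF7, IRF9 and STAT2, with no knockout-only peak, held 9 to 22 other protein-coding genes, and those of IRF1, IRF2, IRF8 and STAT3 held 1 to 4. IRF8 also had no knockout-only peak, and its window held 2 other protein-coding genes. The part of gene density in this division was not tested.

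**Figure D2:**
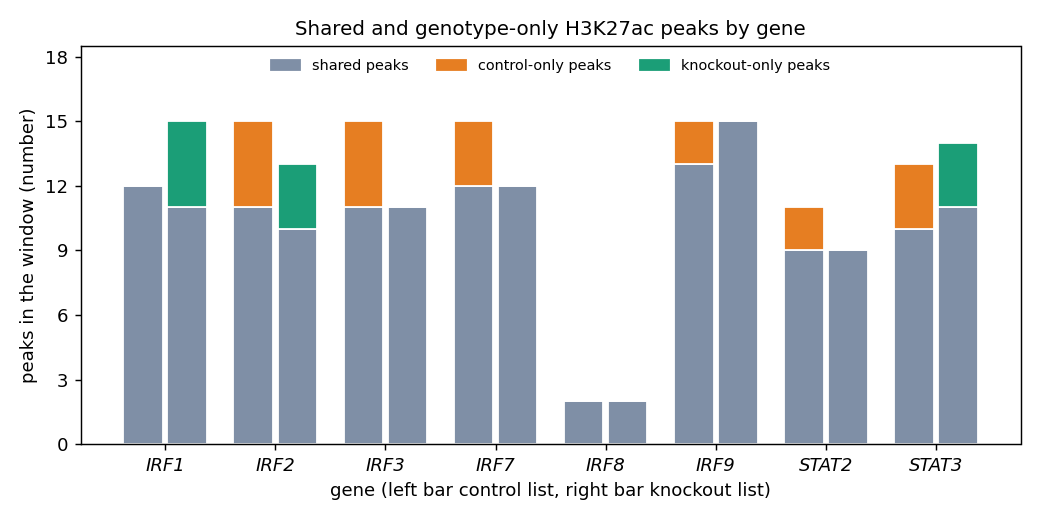
The y axis gives the number of peaks in the window of each gene, with the control list as the left bar and the knockout list as the right bar, each divided into shared and genotype-only peaks. Green is present at IRF1, IRF2 and STAT3, with 4, 3 and 3 knockout-only peaks.

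A peak lay within 1 kb of an end of 7 of the 8 genes in both genotypes, and IRF8 had none in either. Over 19974 protein-coding genes, 61.1% had such a peak in both lists and 35.3% in neither. The authors' pileup, the fragment coverage of a peak, is given below with its percentile in its own list, because the lists had median pileups of 22.7 (control) and 31.99 (knockout). Among all pairs made of 1 control and 1 knockout peak, the knockout pileup was the higher number in 85.9%. Whether this came from depth, scaling or genotype was not tested. No normalization is stated, so the pileups of the lists are not known to be on 1 scale. No change is read from them or from their percentiles.

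IRF3 and IRF7, the factors activated by viral sensing, were both acetylated at the gene in both genotypes. At IRF3 (chromosome 19, 49659572 to 49665857) a control peak of 4061 bp (49662956 to 49667016, pileup 67.5, percentile 90.7) and a knockout peak of 2957 bp (49664073 to 49667029, pileup 97.9, percentile 87.4) covered the higher-coordinate end. The same peaks touched BCL2L12, whose end lies beside that of IRF3, so they cannot be given to 1 of these genes. The control peak reached 1117 bp further into IRF3, while the outer edges differed by 13 bp. At IRF7 (chromosome 11, 612555 to 615950) a control peak of 4986 bp (611748 to 616733, pileup 37.6, percentile 69.9) spanned the whole gene. The knockout peak there was 3844 bp long (613202 to 617045, pileup 67.6, percentile 75.6) and began inside the gene, 1454 bp further in than the control peak. The control peak also touched PHRF1 and CDHR5, and the knockout peak CDHR5, so these peaks cannot be given to IRF7 alone either. At both genes, then, the lower edge lay further out in the control list.

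The strongest peaks of the IRF3 and IRF7 windows lay at neighbouring genes. In the IRF3 window the highest pileup was that of a peak between RRAS, a small GTPase gene, and SCAF1 (146 in control, percentile 99.8, and 148 in knockout, percentile 96.6). The widest control peak there, of 6557 bp, lay at PRMT1, an arginine methyltransferase gene, where the knockout peak measured 5487 bp. In the IRF7 window the highest pileup and the greatest width belonged in both lists to a peak that met the ends of DEAF1, TMEM80 and EPS8L2 (113 over 7521 bp in control and 180 over 6493 bp in knockout). A shared peak in the same window (567409 to 569764 in control) covered the microRNA gene MIR210, known for its induction by hypoxia, with a pileup of 109 in control and 154 in knockout. IRF3 and IRF7 were themselves the closest protein-coding gene for 1 peak per list each, in a tie with the neighbours that these peaks also touched.

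The control-only peaks around IRF3 and IRF7 were weak and none touched either gene. Those of the IRF3 window lay in NOSIP (49569937 to 49572545, 2609 bp, pileup 13.4), in PRR12 (49618609 to 49619255, 8.17), in BCL2L12 (49672055 to 49672464, 16.4) and 3.53 kb from CPT1C (49717261 to 49718029, 11.9). Their fold enrichments over the input-based background, as the authors give them, ran from 2.44 to 4.49. In the IRF7 window they lay at neighbouring ends of LRRC56 and LMNTD2 (554485 to 555360, pileup 12.5), 0.671 kb from DEAF1 (642920 to 643562, 22.1) and in EPS8L2 (712578 to 714156, 9.77). The DEAF1 peak had the highest pileup of the 18 control-only peaks and lay at percentile 48.9 of its list.

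IRF9 and STAT2, the partners in ISGF3, had a shared peak over the start and unshared peaks in the control list alone. At IRF9 (chromosome 14, 24161265 to 24166565) the control peak measured 2309 bp (24160196 to 24162504, pileup 54.0, percentile 83.6) and the knockout peak 1520 bp (24160872 to 24162391, pileup 123, percentile 93.2). The control peak reached 1069 bases before the start and touched RNF31, a ubiquitin ligase gene, whereas the knockout peak reached 393 bases before it. Past the start they reached 1239 and 1126 bases, so the difference in length lay mostly on the upstream side. A control-only peak of 744 bp (24166758 to 24167501, pileup 8.26, fold 2.78) lay 193 bp beyond the other end of IRF9. It was at percentile 4.26 of the control list by pileup, and it was the single control-only peak within 1 kb of an end of any of the 8 genes.

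At STAT2 (chromosome 12, 56341597 to 56360107) the peaks of both genotypes had nearly the same edges. The control peak ran from 56358409 to 56361219 (2811 bp, pileup 42.0, percentile 74.0) and the knockout peak from 56358401 to 56361287 (2887 bp, pileup 62.2, percentile 72.8). They reached 1112 and 1180 bases before the start and 1698 and 1706 bases past it, and both also touched APOF. STAT2 was the closest gene for no other peak. The nearest control-only peak (56337294 to 56339253, 1960 bp, pileup 15.1, fold 3.87) touched IL23A, which encodes a subunit of interleukin-23, and the nearest knockout peak was 2269 bp away. The other one (56297328 to 56297614, 287 bp, pileup 7.44) lay in CS, the citrate synthase gene.

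The IRF9 window was the richest in other genes, and its control peaks were the longer of each pair. All 11 pairs made of 1 control and 1 knockout peak had the longer peak in control, by 1.02 to 1.52 times. In addition, a control peak of 8062 bp over PSME1, EMC9 and PSME2 (24135493 to 24143554) met 2 knockout peaks, of 1838 and 2581 bp. PSME1 and PSME2 encode interferon-inducible proteasome activator subunits. A control peak of 3966 bp at CHMP4A and MDP1 likewise met knockout peaks of 1567 and 1636 bp. The second control-only peak of this window lay in TGM1 (24259299 to 24259867, pileup 10.3).

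IRF1 (chromosome 5, 132481609 to 132490773) stood in the window with the largest covered share of the 8, with 21.7% under control peaks and 24.6% under knockout peaks. Over the start, the control peak measured 4928 bp (132486875 to 132491802, pileup 65.5, percentile 89.9) and the knockout peak 4121 bp (132487687 to 132491807, pileup 111, percentile 90.7). Their upstream edges, 1029 and 1034 bases before the start, differed by 5 bp, and the control peak reached 812 bp further into the gene. The highest pileup of the window was not at the gene but beyond its start, at 3.92 kb in control and 3.87 kb in knockout, with 109 in control (132494690 to 132501788, percentile 98.7) and 185 in knockout (132494644 to 132498952, percentile 98.9). This control peak met a second, weak knockout peak of 735 bp with a pileup of 17.8.

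On the 3′ side of IRF1, both genotypes had a long row of peaks in the non-coding gene CARINH. A strong shared peak lay 20.6 kb away (132455789 to 132461042 in control, pileup 89.97, and 132455526 to 132460780 in knockout, pileup 101), with lengths of 5254 and 5255 bp. Next to it, a knockout peak of 10071 bp (132462804 to 132472874) met 2 control peaks, of 4187 and 1294 bp, and the stretch between these control peaks was covered in the knockout list alone. Further out, a knockout peak of 7131 bp likewise met control peaks of 252 and 4942 bp. All 4 knockout-only peaks lay in the same row, inside CARINH. They measured 1491 bp (132419363 to 132420853, pileup 22.1), 358 bp (132445856 to 132446213, 14.0), 1030 bp (132447760 to 132448789, 17.8) and 261 bp (132475329 to 132475589, 12.1), with folds of 2.47 to 3.19. By pileup they stood at percentiles 34.4, 13.2, 24.2 and 7.79 of the knockout list, and the nearest control peak lay 2185 to 5096 bp from each. Past these peaks, the next one beyond the start was 65.8 kb from the gene in both lists, at RAD50 and IL5.

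IRF2 (chromosome 4, 184387729 to 184474550) spans 86.8 kb and carried peaks along its body in both genotypes. The strongest lay at the higher-coordinate end, beside the divergent transcript IRF2-DT, with a control peak of 4261 bp (184471921 to 184476181, pileup 98.0, percentile 97.7) and a knockout peak of 4344 bp (184471759 to 184476102, pileup 127, percentile 93.8). At the other end, a control peak of 5184 bp stopped 350 bp from the gene and a knockout peak of 4238 bp stopped 1329 bp from it. Inside the gene, between these, lay 5 shared pairs and 1 control-only peak (184441990 to 184443096, pileup 13.0). In this body the pileups of the shared peaks were low, from 7.29 to 28.3 in control and from 11.1 to 40.0 in knockout.

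The unshared peaks of IRF2 lay mostly far from the gene. The knockout-only peak with the highest fold near any of the 8 genes was here (184343309 to 184344259, 951 bp, pileup 32.5, fold 4.54), 43.5 kb from the gene in LINC02363, with the nearest control peak 10520 bp away. It stood at percentile 50.6 of the knockout list by pileup and 42.1 by fold. The other knockout-only peaks (184335284 to 184336055 and 184287575 to 184288356) had pileups of 11.3 and 9.88. Further control-only peaks on that side (184317299 to 184318444 and 184322481 to 184322843) had pileups of 9.40 and 7.16, and one in LINC02427 on the other side (184514290 to 184514829) had 10.4. In that non-coding gene a knockout peak of 4820 bp also met 2 control peaks, of 1193 and 2226 bp.

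STAT3 (chromosome 17, 42313324 to 42388442) was acetylated over its start and along its body in both genotypes. Over the start the knockout peak was the longer, with 3033 bp (42386528 to 42389560, pileup 146, percentile 96.2) against 2010 bp in control (42387474 to 42389483, pileup 103, percentile 98.3). The upstream edges, 1118 and 1041 bases before the start, were close, and past the start the knockout peak reached 1914 bases and the control peak 968. This order is the opposite of that at IRF1, IRF3, IRF7 and IRF9, where the control peak was the longer. The widest peak of the body lay towards the 3′ end of the gene, with 9480 bp in control (42322554 to 42332033, pileup 53.7) and 10469 bp in knockout (42322394 to 42332862, pileup 83.5).

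The unshared peaks of the STAT3 gene itself lay side by side. A knockout-only peak (42378979 to 42379497, 519 bp, pileup 19.4) and a control-only peak (42379564 to 42379826, 263 bp, pileup 11.1) were separated by 66 bp, so they count as unshared only because an overlap of 1 bp was required. The other control-only peak in the gene (42347494 to 42347855, pileup 12.5) and the other knockout-only peak (42342570 to 42343222, pileup 19.4) lay 4271 bp apart. Towards CAVIN1, a caveola coat gene, 1 more of each was found (42402091 to 42403031 in control, pileup 9.04, and 42398145 to 42398498 in knockout, pileup 12.7). None of these 6 peaks had a fold above 3.24.

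Within the STAT3 window, 2 shared peaks had very unequal standing in the lists. A peak 57.8 kb beyond the start in knockout, between CAVIN1 and ATP6V0A1, had a pileup of 14.2 over 952 bp in control (42446725 to 42447676, percentile 28.1) and of 113 over 2119 bp in knockout (42446205 to 42448323, percentile 91.1). A peak inside the gene had 13.7 over 979 bp in control (42366553 to 42367531, percentile 26.2) and 52.3 over 1347 bp in knockout (42366360 to 42367706, percentile 67.0). These peaks were singled out after their values were seen, and no change is read from them. Pairs in other windows stood higher in control. Examples are a pair in CDHR5 near IRF7 (percentile 46.7 in control and 1.90 in knockout) and one near IRF3 (49723459 to 49725354 in control, percentiles 78.2 and 46.4). Over CAVIN1 a control peak of 17716 bp, the widest near any of the 8 genes, met 2 knockout peaks of 4287 and 5541 bp. The highest knockout pileup of the whole set, 221 (percentile 99.6), lay inside STAT5B (42275507 to 42277344), where the control peak had 104 (percentile 98.4). A peak at the adjoining ends of STAT5A and STAT5B was also shared, with pileups of 45.2 and 92.8.

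IRF8 (chromosome 16, 85899162 to 85922609), the factor of myeloid and B cells, had no peak in its span or within 1 kb of it in either genotype. The one nearby peak was shared, about 9.5 kb from the lower-coordinate end, with almost the same edges in control (85888542 to 85889650, pileup 28.3, percentile 58.7) and knockout (85888531 to 85889612, pileup 29.3, percentile 46.6). The other peak of the window lay between EMC8 and COX4I1 at its border (pileups 80.2 and 161). From the nearby peak to the far border of the window, 133 kb held no peak in either list, and 1.29% of the window was covered in control and 1.28% in knockout. Among markers of blood cells, PTPRC, CD3E, CD14 and HLA-DRA likewise had no peak at an end in either list, and SPI1 had one in both. Of the markers of mesenchymal breast cancer lines (VIM, CD44, AXL, CAV1, EGFR and ZEB1), 6 of 6 had one in both lists. Of 6 luminal markers, GATA3, FOXA1, KRT19 and EPCAM had one in both, ESR1 in knockout alone (287 bp, pileup 11.4) and PGR in neither.

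Genotype-only peaks near these genes were shorter and weaker than shared ones, as they were over the whole lists. All 18 control-only and all 10 knockout-only peaks lay in the lower 50% of their list by fold enrichment, at or below percentiles 42.9 and 42.1. Of the peaks in that lower 50%, 39 control and 32 knockout peaks lay near the 8 genes, and 46.2% and 31.3% of them were unshared, against 34.4% and 41.4% over the whole lists. The median length was 695.5 bp for control-only and 2367.5 bp for shared control peaks, and 712.5 bp for knockout-only and 2167 bp for shared knockout peaks. Median pileups were 10.8 and 45.8 in control and 15.9 and 67.6 in knockout. Over the whole lists, median lengths were 673 bp (unshared) and 1776 bp (shared) in control and 765 and 1826 bp in knockout, and median pileups were 11.05 and 28.25 in control and 16.13 and 43.35 in knockout. Of the unshared peaks, 3 control-only and 1 knockout-only peaks had a −log10 q of at least 5.

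**Figure D3:**
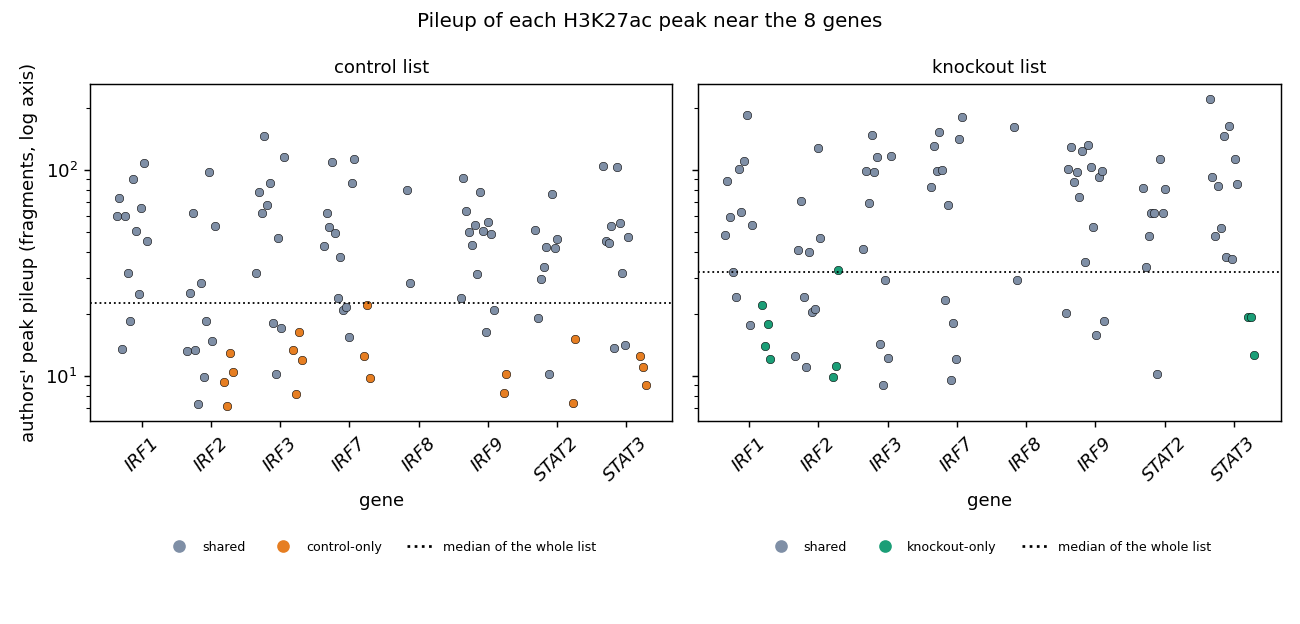
The y axis gives the authors' pileup of each peak on a log axis, by gene, for the control list (left) and the knockout list (right), with the list medians of 22.7 and 31.99 as dotted lines. All control-only points lie below the first line, and 1 knockout-only point, at IRF2 with 32.5, lies above the second.

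Unshared peaks touched IRF2 and STAT3 among the 8 genes. Of the peaks that touched their own gene, 3 of 18 in control (1 in IRF2 and 2 in STAT3) and 2 of 17 in knockout (both in STAT3) were unshared, where 18.0% and 22.4% of all peaks were. One of the 8 genes was the closest protein-coding gene for 31 of the 98 control peaks and 30 of the 91 knockout peaks, of which 5 in each list were unshared. At an end of any protein-coding gene lay 48.0% of the control peaks and 46.2% of the knockout peaks of these windows, against 28.9% and 26.9% over the lists. Of those peaks at gene ends, 5 of 47 in control and 0 of 42 in knockout were unshared, against 524 of 11488 and 454 of 11462 over the lists.

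Peak length also differed between the windows. Near the 8 genes, 70 pairs were made of 1 control and 1 knockout peak, and the control peak was the longer in 50 of them (71.4%), against 48.8% of all such pairs in the lists. Most of these lay in the windows of IRF3 (9 of 11 pairs), IRF7 (11 of 12), IRF9 (11 of 11) and STAT2 (7 of 9), together 38 of 43 (88.4%) with a median control to knockout length ratio of 1.20. In the windows of IRF1 (3 of 7), IRF2 (4 of 9), IRF8 (2 of 2) and STAT3 (3 of 9) it was 12 of 27 (44.4%), with a median ratio of 0.98. This division of the genes was made after the values were seen. Pairs at an end of a protein-coding gene had the longer peak in control in 31 of 39 cases near the 8 genes, and in 57.1% of cases over the lists. On chromosomes 11, 12, 14 and 19, which carry IRF7, STAT2, IRF9 and IRF3, the share over all pairs was 53.5%, 48.1%, 54.7% and 53.6%. On chromosomes 4, 5, 16 and 17, which carry IRF2, IRF1, IRF8 and STAT3, it was 41.8%, 48.5%, 53.6% and 56.7%. Peaks in a window share a locus and are not replicates, and peak length also depends on where the caller sets the edge against background, so these counts describe the 2 lists.

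**Figure D4:**
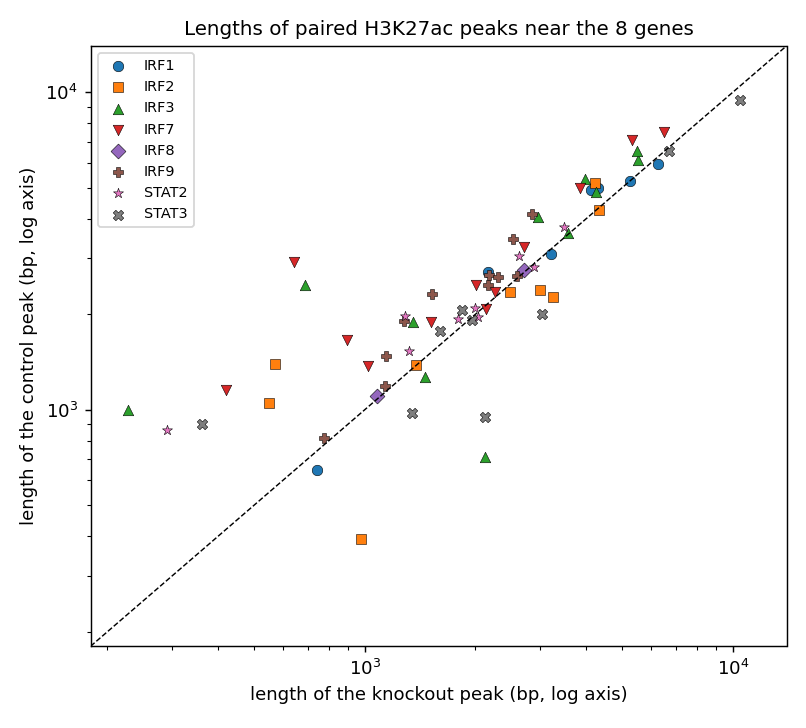
Each point is 1 pair of overlapping peaks, with the length of the knockout peak on the x axis and of the control peak on the y axis (bp, log axes), by gene, and the dashed line marks equal length. Of 43 points of IRF3, IRF7, IRF9 and STAT2, 38 lie above the line.

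The covered length was also compared. In the windows of IRF3, IRF7, IRF9 and STAT2 control peaks covered 39.8, 41.9, 39.0 and 22.2 kb and knockout peaks 29.2, 29.3, 28.1 and 17.7 kb, so the control list covered more in each. Of the knockout length there, 93.9 to 98.5% lay under control peaks, while 68.2 to 78.3% of the control length lay under knockout peaks. For STAT3 these shares were 85.7% and 76.3%, and for IRF2 76.5% and 78.4%. At IRF1 the order was turned, with 45.3 kb in control and 51.5 kb in knockout. IRF2 had 27.3 and 27.9 kb, STAT3 45.9 and 40.8 kb, and IRF8 2.88 and 2.86 kb. Where peaks of the lists did not pair singly, 4 control peaks met 2 knockout peaks each (1 at IRF1, 2 at IRF9 and 1 at STAT3) and 3 knockout peaks met 2 control peaks each (2 at IRF1 and 1 at IRF2).

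Peaks lay close to the border of the window on both sides. The farthest peak counted was a knockout-only peak 99.4 kb from IRF2, and the nearest peak left out was a shared one 100.8 kb from STAT2. The smallest gap among unshared peaks was the 66 bp at STAT3, and the smallest overlap, as a share of the shorter peak, was 0.74 (215 of 290 bp), in PAN2 near STAT2.

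The rest of the pathway was acetylated at the gene in both genotypes. Of 37 receptors, kinases, sensors and inhibitors of interferon and STAT signalling, a peak lay at an end of 36 in both lists, including 10 of 10 sensors, adaptors and kinases upstream of the IRFs such as TBK1 and MAVS and 10 of 10 inhibitors and corepressors such as SOCS1 and IRF2BP2, a corepressor partner of IRF2. Among 12 receptors and Janus kinases, 11 had one in both. The exception was LIFR, the receptor of leukaemia inhibitory factor that signals to STAT3, with a knockout-only peak of 1545 bp at an end (chromosome 5, 38607102 to 38608646, pileup 25.3, percentile 40.3, fold 2.74). Inside LIFR, however, a stronger peak was shared (38556142 to 38557645 in control, pileup 64.3, percentile 89.4). Its knockout partner had a pileup of 119 (percentile 92.4). A weak peak inside the gene was shared as well (38599444 to 38600775 in control, pileup 10.5). Of all protein-coding genes, 61.1% were met at an end by peaks of each list. A further 1.72% were met there by a peak of the knockout list alone and 1.84% of the control list alone. STAT5A and STAT5B count as separate genes among the 37, although the same peak of each list met their adjoining ends. Within 100 kb of the 37 genes, 38 of 284 control peaks (13.4%) and 65 of 314 knockout peaks (20.7%) were unshared. The shares over all peaks within 100 kb of a protein-coding gene were 17.4% and 20.5%. Some of these peaks, such as those at STAT5A and STAT5B, are also counted in the STAT3 window.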

How the data were processed

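Each genotype, control or ARID1A knockout, had 2 input and 2 immunoprecipitated libraries of MDA-MB-231 cells. Groups and replicate numbers were read from the titles. Alignment with Bowtie2 2.3.5.1 to hg38 and peak calling with MACS2 2.2.6 are named in the submitters' processing notes. Caller options, filters on reads, library depth and pooling of replicates are not given in the sources used here. For each peak the authors deposited its position, length, pileup (a coverage signal), fold enrichment (a ratio) and −log10 q-value, per the file headers. Each list was tied to its genotype and input by its name. The −log10 q of control peaks began at 1.01.

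Overlaps, distances and percentiles within a list were computed in Python 3.11.15 (numpy 2.4.6, pandas 2.3.3, scipy 1.17.1, matplotlib 3.10.9), with overlap code tested on simulated data. RefSeq gene spans on GRCh38.p14, the assembly of hg38, were used. That table gives no strand or exons, so gene ends were used where no promoter entry existed. The genes and gene lists were chosen with earlier results of these data known, and some listed genes are not reported here. The peaks named are those at the start or ends of each gene, the strongest and widest of each window, and each genotype-only peak. The further ones, as at MIR210, STAT5A, CHMP4A and CARINH and those that met 2 peaks of the other list, were chosen after their values were seen. No test was run, with 1 list per genotype. Alternatives changed the overlap rule, the q-value cut, the window and the closest-gene rule.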

Additional observations from a re-analysis of the deposited data

How the results depend on the processing

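The division into shared and unshared peaks changed little with the overlap rule. With an overlap of at least 50% of the shorter peak the counts were 18 control-only and 10 knockout-only, and with any peak of the other list within 1 kb taken as shared they were 17 and 9, with shared counts of 80 to 81 in control and 81 to 82 in knockout. The smallest overlap of a shared peak was 0.74 of the shorter peak, so the 50% rule could move no count here. The other alternatives changed the number of peaks counted by construction. With a −log10 q of at least 5 in both lists, 8 control-only and 4 knockout-only peaks were left, which include shared peaks whose partner failed the cut. With windows of 50 kb there were 11 control-only peaks beside 49 shared control and 52 shared knockout peaks, and with windows of 200 kb 35, 145 and 148. Knockout-only peaks then numbered 7 and 13. Restricted to peaks whose closest protein-coding gene was the member, 5 control-only and 5 knockout-only peaks stood beside 26 shared control and 25 shared knockout peaks. IRF3, IRF7, IRF9 and STAT2 had 0 knockout-only peaks with the 50% overlap, with the q-value cut and with windows of 200 kb. None of the 4 knockout-only peaks of IRF1 passed the q-value cut (−log10 q of 2.28 to 4.70). The 1 counted at IRF1 under that cut was a shared peak whose partner failed it. STAT3 had 0 control-only peaks under the cut, against 3 as reported. IRF1 had control-only peaks (3) with windows of 200 kb alone. The 1 kb rule, the windows of 50 kb and the closest-gene rule cannot add an unshared peak. Counts of 0 under those alternatives were therefore fixed in advance. Depth was not given in the sources used here, so whether a weak peak missing from a list was below detection there was not tested. No replicate could be left out, and no paired analysis was possible because each genotype had a single peak list.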

Other observations

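The surroundings of the pathway genes IFNGR1 and CGAS are given as examples that were singled out after their values were seen, and other pathway genes also had unshared peaks in 1 genotype alone. Around IFNGR1, which encodes the ligand-binding chain of the interferon gamma receptor, 3 control peaks were all shared, whereas 7 of 10 knockout peaks were knockout-only. They ran from 239 to 1536 bp with pileups of 12.7 to 28.0, and the peak over the gene end was shared (1778 bp and pileup 45.7 in control, 1933 bp and 75.8 in knockout). The knockout-only peak of highest pileup (137148049 to 137149584) and that at 137155562 to 137156598 lay inside the neighbouring gene IL22RA2. Around CGAS, which encodes the sensor of cytosolic DNA, 4 of 8 control peaks were control-only, with pileups of 9.0 to 15.7, and 4 of 4 knockout peaks were shared. The control-only peak of highest pileup (73398412 to 73399194) lay in the neighbouring gene DDX43, and that at 73418522 to 73419036 lay 956 bp from DDX43. The others lay inside CGAS. Over all peaks within 100 kb of a protein-coding gene, 17.4% of control peaks and 20.5% of knockout peaks were unshared. The peak at the end of CGAS measured 8593 bp in control (pileup 84.3, percentile 95.6) and 4969 bp in knockout (pileup 264, percentile 99.9), with higher-coordinate edges at 73453200 and 73453098 of chromosome 6.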
